A study of Mus musculus with 20 samples.

Results

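Hearts of mdx mice were set against hearts of wild-type mice, with 2 libraries on each side, which are 4 of the 20 libraries of the series and were chosen by their titles. The mdx mice have a premature stop in Dmd, from a nonsense mutation, and the strain label C57BL/10, and the wild-type mice carry the strain label C57BL/6N. Neither group carries a transgene or was treated, and the labels give no age or sex. Strain and mdx genotype therefore differ together between the sides and cannot be told apart. The series also holds hearts of transgenic mice, made by injecting linearised plasmids of a system that places an unnatural amino acid (UAA) at stop codons, and of trans/mdx mice, a cross of that line with mdx. Trans/mdx mice were kept without UAA or received 50 mg of NAEK, a lysine derivative, every few days for 4 weeks. All transgenic and trans/mdx mice carry the strain label C57BL/6N, although mdx mice were a parent line of the cross. The TA muscles titled as the cross without UAA carry the genotype label transgenic, not trans/mdx, and were grouped by title. Each group had 2 mice, and tibialis anterior (TA) muscle was sequenced beside heart.

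Dystrophin, the product of Dmd, links the actin cytoskeleton of heart and skeletal muscle cells to the surrounding matrix through a complex of sarcoglycans, dystroglycan, syntrophins and dystrobrevins. Without it the cell membrane is easily damaged during contraction. Utrophin, its relative, can take part of its place. In mdx mice skeletal muscle degenerates early, while the heart develops fibrosis and loss of function late in life.

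Levels are in FPKM, fragments counted per length of transcript and per library size. Steps between low values implied 3460000 to 4060000 fragments in the 4 libraries, so a fragment on a transcript of 1 kb equalled 0.246 to 0.289 FPKM, and levels near 1 FPKM rest on few fragments. These steps give relative precision only and cover counting error alone. The library of mdx replicate 2 stood apart, with 7352 genes at 1 FPKM or more against 5715 in mdx replicate 1 and 6578 and 6085 in wild type. Its median-of-ratios scaling factor was 1.456, beside 0.900 in mdx replicate 1 and 1.153 and 1.003 in wild type. Cardiomyocyte markers were high in all 4 libraries. Myl3, a ventricular myosin light chain, was at 194 and 376 FPKM in mdx and 255 and 264 in wild type, and Pln, the calcium pump inhibitor phospholamban, was at 227 and 441 FPKM beside 375 and 305. Of 10 markers of fast skeletal fibres, Myh1, Myh4, Tnnt3, Actn3, Mylpf, Pvalb and Atp2a1 were listed at 0 in all 4.

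Of 8269 genes tested with limma on log2(FPKM + 1), 1 was called lower in mdx hearts at an adjusted p under 0.05 (0.0121%) and 0 were called higher (0%). At an unadjusted p under 0.05 there were 84 lower genes (1.02%) and 135 higher genes (1.63%). Together these are 219 genes, fewer than the 413 expected at this threshold if no gene differed. Both mdx libraries lay below both wild-type libraries for 736 genes (8.90%) and above them for 1372 (16.6%). The median change of all tested genes was 0.07 on the log2 scale, and the median standard error of a gene was 0.46. Without mdx replicate 2 the unadjusted counts were 194 lower and 82 higher, and without mdx replicate 1 they were 41 lower and 262 higher. Without wild-type replicate 2 they were 128 lower and 82 higher. Quantile normalization gave 185 lower and 168 higher. Genes below are therefore given by their level in every library, and groups of genes by counts beside these backgrounds.

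**Figure D1:**
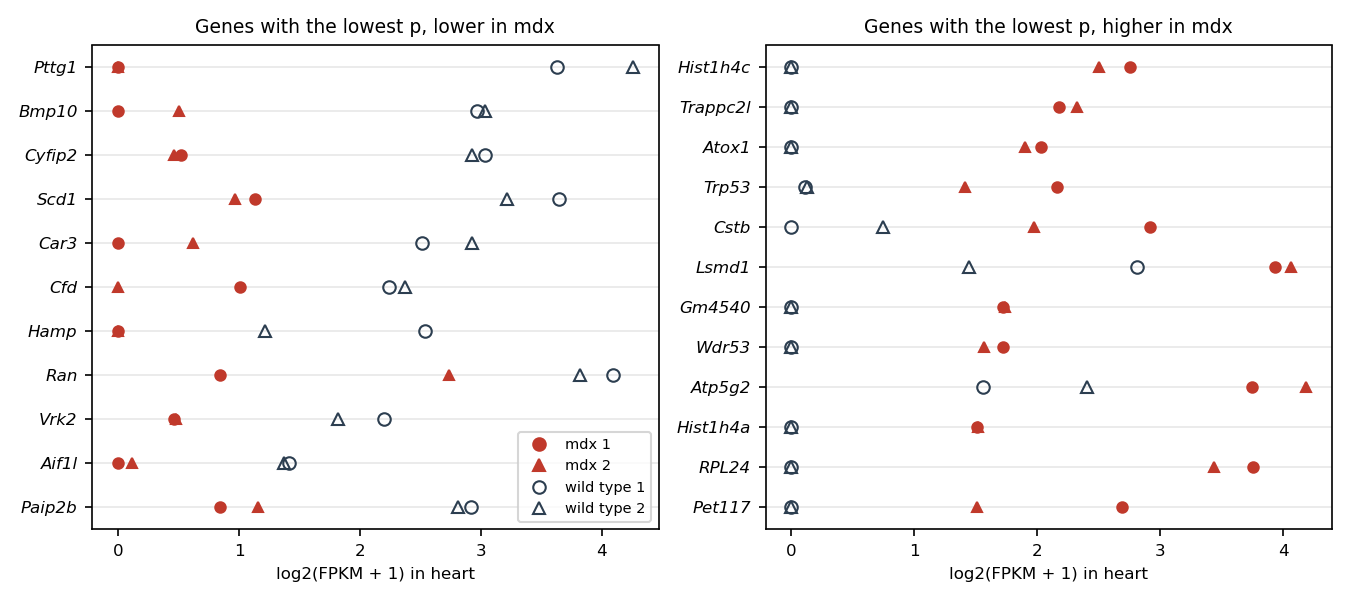
Level in heart of genes among the 12 with the lowest p in each direction, 11 of them lower and 12 higher, as log2(FPKM + 1) on the horizontal axis. Filled red symbols are the mdx libraries, open dark symbols the wild-type libraries, circles replicate 1 and triangles replicate 2. In each gene shown the mdx and wild-type libraries do not overlap, which is a result of choosing them by p.

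Pttg1 was the gene called. It encodes securin, which holds separase inactive until sister chromatids part in mitosis. Pttg1 (11:43420250-43426251, minus strand, mm10) was listed at 0 FPKM in each mdx heart, while the wild-type hearts had 11.4 and 18.1 FPKM (limma, adjusted p = 0.000565). A 0 in FPKM files of this kind may be an estimate that failed. Pttg1 was the only gene at 0 in an mdx heart whose median in the other hearts was 5 FPKM or more, and it was so in both libraries. The TA muscles showed the same zeros, with 0 and 0 FPKM in mdx beside 15.3 and 14.2 in wild type. The mdx effect in heart minus that in muscle was 0.03 on the log2 scale (SE 0.78, limma, adjusted p = 0.997). With mdx at 0 in both tissues, this value rests on the wild-type levels alone and cannot show that the effects are equal. In that fit of all 20 libraries, 0 of 10085 genes were called (0% lower and 0% higher), and 605 had an unadjusted p under 0.05.

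The hearts that carry the Dmd mutation together with the transgene were not at 0. Trans/mdx hearts without UAA were at 8.95 and 8.54 FPKM, treated trans/mdx hearts at 7.70 and 10.6, and transgenic hearts at 3.36 and 4.05. Pttg1 was thus at 0 in all 4 libraries labelled C57BL/10 and at 1.85 FPKM or more in the 16 labelled C57BL/6N. The mdx effect was tested for a difference between mice without and with the transgene, (mdx minus wild type) minus (trans/mdx without UAA minus transgenic), in which no library enters both effects. Pttg1 was the gene called lower of 8269 (0.0121%, limma adjusted p = 0.00241), 0 were called higher (0%), and 304 had an unadjusted p under 0.05. With no filter on low values the adjusted p of Pttg1 was 0.0503.

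Other genes of chromosome segregation did not share the pattern of Pttg1. Of 28 genes of mitosis and the securin-separase system, 10 passed the filter on low values and Pttg1 was the only member with an unadjusted p under 0.05. Separase itself (Espl1), the securin-degrading activator Cdc20, and Ccnb1 and Aurka, which drive mitosis, were listed at 0 in all 4 hearts. Cdk1, the mitotic kinase, was also at 0 in all 4. The cohesin genes Smc1a, Smc3, Rad21, Stag1 and Stag2 were all tested, and none had an unadjusted p under 0.05. The median change of the list relative to all genes was -0.03 on the log2 scale, with 4 members above and 6 below the median of all genes.

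Cyfip2 lies 2767598 bases from Pttg1 on the same chromosome (11:46193850-46312859, minus strand) and encodes a subunit of the WAVE complex, which starts branched actin networks. It was at 0.438 and 0.381 FPKM in mdx hearts and at 7.17 and 6.58 in wild-type hearts. The groups were far apart, with a log2 change of -2.48 (SE 0.41), which missed the threshold (limma, adjusted p = 0.0563). Every other heart was higher than the mdx hearts: transgenic hearts were at 3.48 and 2.12 FPKM, trans/mdx hearts without UAA at 3.18 and 1.95, and treated hearts at 4.55 and 3.84. The mdx effect without the transgene minus that with it was -2.39 (SE 0.58, limma, adjusted p = 0.916). In muscle Cyfip2 was at 0.931 FPKM or less in every library. Of 8 tested WAVE complex genes, Cyfip2 was the only member with an unadjusted p under 0.05. Nckap1, the partner subunit of the complex, was at 6.02 and 7.06 FPKM in mdx and 3.72 and 4.13 in wild type.

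Genes between and around both were read in order along the chromosome. In the window from 5 Mb before Pttg1 to 5 Mb after Cyfip2, 39 of 106 genes were tested. At an unadjusted p under 0.05, 3 were lower and 0 higher, beside 1.02% lower and 1.63% higher of all tested genes. Among the 3 are Pttg1 and Cyfip2, around which the window was drawn. The third is 9930111J21Rik2, an unnamed gene model, at 0 and 0.211 FPKM in mdx hearts and 1.53 and 0.873 in wild type (log2 change -0.98, SE 0.40). The 10 tested genes between Pttg1 and Cyfip2 had log2 changes of -0.69 to 0.59, and the lowest p among them was 0.21, for Ttc1. Slu7, the nearest tested neighbour of Pttg1, had a log2 change of 0.43 (SE 0.42). For Ccng1, a cyclin G gene before Pttg1, mdx hearts had 26.1 and 43.7 FPKM and wild-type hearts 63.5 and 51.1 (log2 change -0.74, SE 0.42). For Rnf130, a ubiquitin ligase gene after Cyfip2, they had 2.09 and 2.50 FPKM beside 4.74 and 4.69 (log2 change -0.80, SE 0.41). Rnf130 was also low, at 0.859 to 1.86 FPKM, in the 4 trans/mdx hearts. Over the whole chromosome 16 genes were lower and 14 higher at an unadjusted p under 0.05, which is 4.14% of 725 tested, while the other chromosomes had shares of 1.10 to 3.46%.

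**Figure D2:**
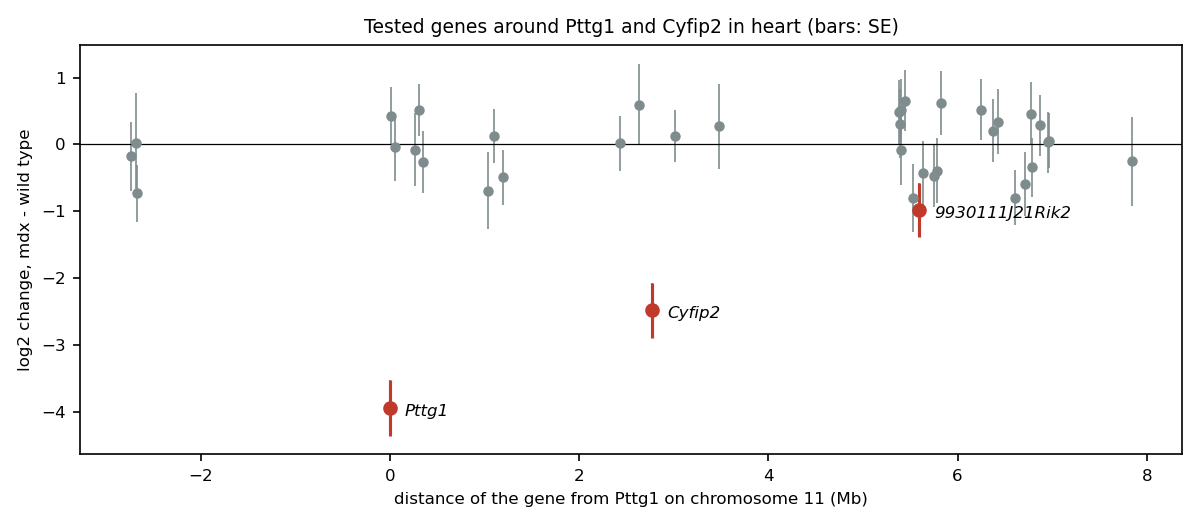
Log2 change between mdx and wild-type heart (vertical axis) of the 39 tested genes of the window, against distance from Pttg1 in Mb (horizontal axis), with bars of 1 standard error. Red points have an unadjusted p under 0.05. Pttg1 and Cyfip2 lie below all other genes, and the 10 tested genes between them lie from -0.69 to 0.59.

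Bmp10, a secreted growth factor of the TGF-beta family made by atrial cardiomyocytes, had 0 and 0.417 FPKM in mdx, far under the 6.84 and 7.18 FPKM of wild-type hearts (log2 change -2.75, SE 0.44, limma, adjusted p = 0.0563). It also varied between the other groups. It was at 0.846 and 2.48 FPKM in transgenic hearts, at 0 and 0.499 in trans/mdx hearts without UAA, and at 8.01 and 8.64 in treated hearts. Both contrasts of mdx carriers with non-carriers thus had the lower level on the side of the mutation, and their difference was -1.70 (SE 0.63, limma, adjusted p = 0.999). Bmp10 was at 0 in all muscles, and its effect in heart minus that in muscle was -2.75 (SE 0.50, limma, adjusted p = 0.149). With every muscle at 0, this value only repeats the heart change and does not compare mdx effects between tissues. Of 10 atrial markers, all were tested, 9 lay below the median of all genes, and Bmp10 was the only member with an unadjusted p under 0.05. The atrial myosin light chains Myl7 and Myl4 overlapped between the groups, with Myl7 at 7.31 and 24.5 FPKM against 34.1 and 17.9, and Myl4 at 4.84 and 23.7 against 21.5 and 12.4. The summed level of the list was 97.0 and 249 FPKM in mdx and 250.1 and 202.5 in wild type, and its part in the level of Bmp10 was not tested. In bulk heart, fewer cells of a type and less RNA per cell cannot be told apart.

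**Figure D3:**
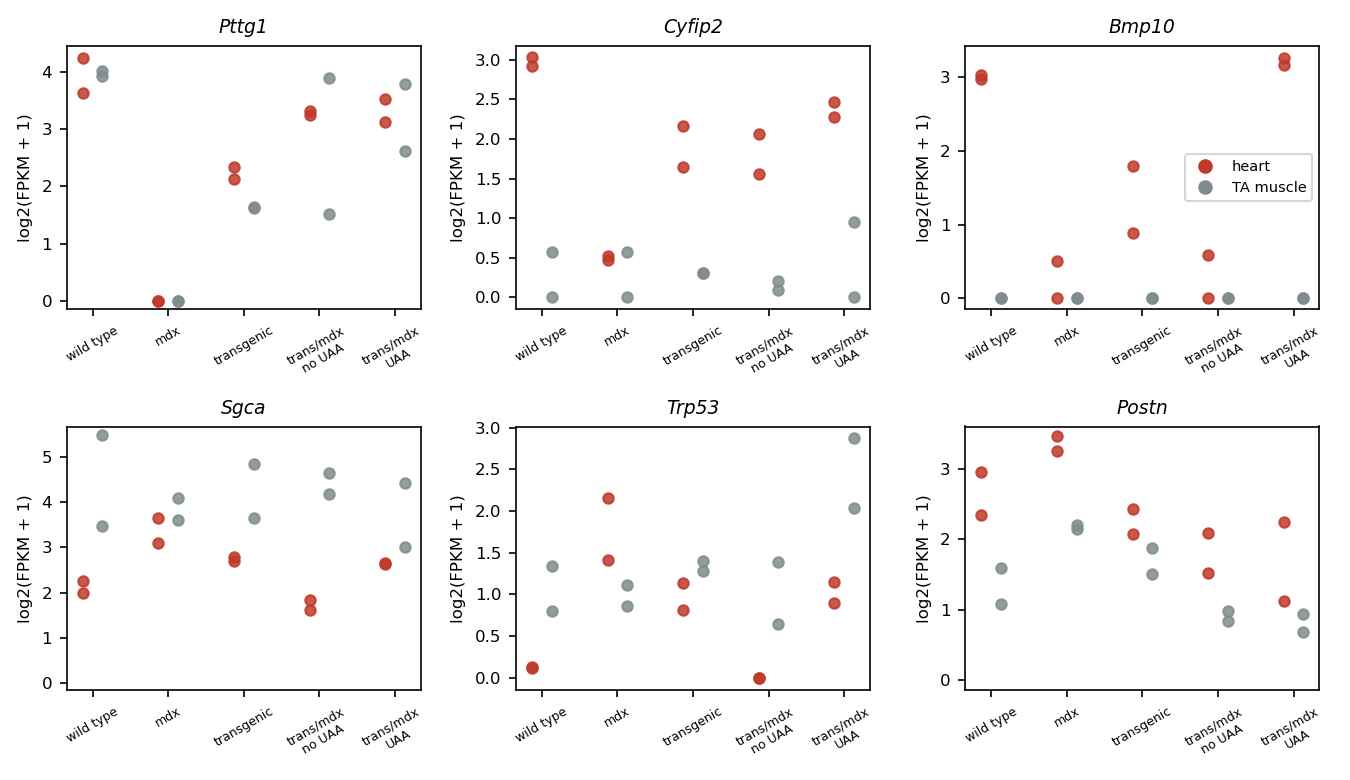
Level as log2(FPKM + 1) (vertical axis) of Pttg1, Cyfip2, Bmp10, Sgca, Trp53 and Postn in each library of the 5 groups (horizontal axis), with heart in red and TA muscle in grey. Pttg1 is at 0 in the 4 mdx libraries alone, Cyfip2 is lowest among hearts in mdx, and Bmp10 is high in wild-type and treated hearts.

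Genes of fat storage lay lower in mdx than in wild-type hearts, and wild type was the high group among all hearts for the 4 genes given here. Of 13 adipocyte markers 7 were tested and 0 were called. At an unadjusted p under 0.05, 4 were lower, beside 1.02% of all tested genes. Both mdx libraries lay below both wild-type libraries for 6, beside 8.90% of all tested genes. The list's median change relative to all genes was -1.54 on the log2 scale, and -0.29 where a mean of 5 FPKM was required, which left Fabp4 alone. Scd1, a desaturase of newly made fatty acids (19:44394455-44407879), was at 1.19 and 0.952 FPKM in mdx and 11.5 and 8.28 in wild type, Car3, a carbonic anhydrase, at 0 and 0.534 against 4.72 and 6.58, Cfd, which encodes adipsin, at 1.01 and 0 against 3.73 and 4.17, and Adipoq, the adipokine adiponectin, at 0 and 0.639 against 1.58 and 3.91. The other hearts without UAA were also low in Scd1, since transgenic hearts had 0.514 and 0.182 FPKM of Scd1, trans/mdx hearts 0.655 and 0.854, while treated hearts were between these and wild type at 4.00 and 5.78 FPKM. The same 4 hearts without UAA had Car3 at 0 to 0.639 FPKM, Cfd at 0 to 0.382 and Adipoq at 0, which is no higher than the range of the mdx hearts for Cfd and Adipoq. Across the markers, Lep, Retn and Adrb3 were listed at 0 in all 4 libraries, while Fabp4, which endothelial cells also express, was at 71.6 and 111 FPKM against 103 and 104. The contribution of fat attached to the dissected heart was not tested.

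Lipid synthesis genes had 2 of 17 tested members at an unadjusted p under 0.05, both lower, beside 1.02% lower of all tested genes. Of the 17, 13 lay below the median of all genes (list median -0.37 relative to all genes). The 2 were Scd1 and Fasn, the fatty acid synthase, which was at 1.29 and 0.681 FPKM in mdx and 4.38 and 4.88 in wild type. Wild type was the high group for Fasn as well, since the other groups lay at 0.15 to 3.82 FPKM. Srebf1, whose product switches on such genes, lay on the other side, at 2.64 and 2.39 FPKM in mdx and 1.26 and 0.526 in wild type (log2 change 0.92, SE 0.44). Of 33 tested genes of fatty acid uptake and oxidation, the main fuel pathway of the heart, 25 lay below the median of all genes. Their list median was -0.09, and it ranged from -0.294 to 0.133 under other settings of the fit. At an unadjusted p under 0.05 there were 0 of the 33. Glycolysis genes had 0 of 25 and sarcomere genes 0 of 21. Of all tested genes 1.63% were higher and 1.02% lower at an unadjusted p under 0.05. Among 74 tested nuclear subunits of the respiratory complexes 2 were higher at that threshold and 0 lower. These were Atp5g2, a gene for the c subunit of ATP synthase, at 12.4 and 17.2 FPKM in mdx and 1.95 and 4.30 in wild type, and Ndufa2, a complex I gene, at 5.09 and 10.03 against 1.95 and 2.88. The list median was 0.01 relative to all genes. Pdk3, a kinase that shuts off pyruvate dehydrogenase, was at 0 and 0.121 FPKM in mdx and 1.16 and 1.29 in wild type. It was the only member of the citric acid cycle list with an unadjusted p under 0.05. Wild type was the exception for Pdk3, since the other groups lay at 0 to 0.584 FPKM. Pdk3 thus passed the filter on low values through wild type alone, and its low p follows in part from the filter.

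Further genes among the 12 lowest p on the lower side had no common role. Hamp, the iron hormone hepcidin, was listed at 0 in each mdx heart, while wild type had 4.79 and 1.32 FPKM (limma, adjusted p = 0.805). Ran, the GTPase of nuclear transport, was at 0.799 and 5.68 FPKM against 16.0 and 13.1. Vrk2, a protein kinase gene of chromosome 11, was at 0.382 and 0.396 FPKM against 3.60 and 2.52. Paip2b, which binds poly(A)-binding protein, was at 0.792 and 1.23 against 6.55 and 6.00, and Aif1l, an actin-binding protein gene, at 0 and 0.0831 against 1.66 and 1.59. For Vrk2 and Aif1l wild type was the exception, since all other hearts lay below both wild-type libraries. Aif1l passed the filter on low values through the wild-type hearts alone, so its low p follows in part from the filter. For Hamp, Ran, Vrk2, Paip2b and Aif1l the groups did not overlap, which is a result of choosing them by p. None of them passed the adjusted threshold.

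On the higher side none of the 12 genes with the lowest p passed. Hist1h4c and Hist1h4a encode the same histone H4 and are near-identical copies whose shares of reads are uncertain. Hist1h4c was at 5.74 and 4.67 FPKM in mdx hearts and listed at 0 in both wild-type hearts (limma, adjusted p = 0.113), and also at 0 in all transgenic and untreated trans/mdx hearts. Treated trans/mdx hearts were at 1.42 and 6.86 FPKM, so their range holds both mdx values. Hist1h4a was at 1.85 and 1.86 FPKM against 0 and 0, while Hist1h4b, a further copy, was at 0 and 0 against 1.64 and 0.905. Of 10 tested histone genes these first 2 were the only members with an unadjusted p under 0.05, beside 1.63% higher of all tested genes. Hist1h4a reached 1 FPKM in the mdx hearts alone and passed the filter on low values through them, so its low p follows in part from the filter. The list median was -0.06 relative to all genes.

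Trp53 (11:69580359-69591873), which encodes the tumour suppressor p53, was at 3.47 and 1.66 FPKM in mdx hearts and at 0.0807 and 0.0910 in wild-type hearts (log2 change 1.67, SE 0.42, limma, adjusted p = 0.840). The order turned over among mice with the transgene, with 0.754 and 1.20 FPKM in transgenic hearts and a level near 0 in both trans/mdx hearts without UAA. The difference between these effects was 2.64 (SE 0.59, limma, adjusted p = 0.637). Trappc2l, a subunit of a vesicle-tethering complex, was at 3.51 and 4.01 FPKM against 0 and 0, and Atox1, the copper chaperone, at 3.09 and 2.73 against 0 and 0. Cstb, the protease inhibitor cystatin B, was at 6.55 and 2.92 FPKM against 0 and 0.672, and Pet117, a gene for a factor of cytochrome oxidase assembly, at 5.45 and 1.84 against 0 and 0. Lsmd1, at 14.3 and 15.7 FPKM against 6.03 and 1.72, encodes a subunit of an acetyltransferase complex. Wdr53 was at 2.30 and 1.96 FPKM and Gm4540 at 2.30 and 2.33, both against 0 and 0 in wild type. The row named RPL24 was at 12.5 and 9.82 FPKM against values near 0, and values near 0 also occurred in replicate 2 of both trans/mdx heart groups while replicate 1 was at 14.9 and 8.83 FPKM, so this row is uncertain. Ribosomal protein genes have many near-identical copies.

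Short genes were frequent among those with low p. The median annotated transcript length was 877 bases for the 84 lower genes and 836 for the 135 higher genes, against 1248 for all tested genes, and a fragment adds more FPKM on a shorter transcript. The part of length in these differences was not tested.

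Dmd itself did not separate the groups. It was at 7.65 and 15.1 FPKM in mdx and 14.7 and 12 in wild type (mean 11.4 ± 5.25 against 13.3 ± 1.91, SD, n = 2 each), with a log2 change of -0.28 (SE 0.44, limma). A nonsense mutation need not lower the level of its transcript, and the mutated base cannot be read from levels, so Dmd does not check the labels here. Utrn, the gene of utrophin, was at 3.46 and 5.68 FPKM against 4.37 and 4.36. Of 24 dystrophin complex genes with values, 20 were tested and 0 were called, with 9 members above and 11 below the median of all genes. At an unadjusted p under 0.05, 2 were higher, beside 1.63% of all tested genes, and 0 lower.

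Sgca, the gene of alpha-sarcoglycan (11:94962791-94976327), was at 7.55 and 11.6 FPKM in mdx hearts and 3.76 and 3.01 in wild-type hearts (log2 change 1.25, SE 0.41). With the transgene its order was the opposite, without overlap, at 2.07 and 2.56 FPKM in trans/mdx hearts without UAA and 5.94 and 5.50 in transgenic hearts. The difference between the effects was 2.27 (SE 0.57, limma, adjusted p = 0.997). The other sarcoglycan genes did not pass the unadjusted threshold, such as Sgce at 1.70 and 1.40 FPKM against 1.98 and 0.235.

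Genes of cardiomyocyte stress lay on both sides. Of 15 tested members, 7 lay above and 8 below the median of all genes. At an unadjusted p under 0.05, 1 was higher, beside 1.63% of all tested genes, and 0 lower. Myh7, the slow myosin that stressed mouse ventricle expresses again, was at 5.65 and 6.89 FPKM in mdx hearts and 2.63 and 2.83 in wild type (log2 change 0.96, SE 0.41). Wild type was the exception among all hearts, since the other groups lay at 5.65 to 9.03 FPKM. Ankrd1, a stretch-responsive repeat protein gene, had a mean of 245.6 ± 21.5 FPKM against 148 ± 20.2 (SD, n = 2 each) with no overlap. Acta1, the skeletal actin that is also a fetal heart gene, lay the other way, at 6.00 and 10.2 FPKM against 15.4 and 13.3. The natriuretic peptide genes overlapped, with Nppa at 67.2 and 162 FPKM against 155 and 148, and Nppb at 7.49 and 19.7 against 5.47 and 7.97. Calcium handling genes had 0 of 20 tested members at an unadjusted p under 0.05. Casq2, the calcium store protein calsequestrin, was at 74.0 and 75.1 FPKM against 57.3 and 49.3. Of 16 tested ion channel and gap junction genes 1 passed that threshold, Kcnj11, the pore of the ATP-sensitive potassium channel, at 5.05 and 6.70 FPKM against 1.77 and 2.55.

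Matrix genes, which mark fibrosis, gave no gene past the threshold. Of 21 tested collagen and matrix genes 0 had an unadjusted p under 0.05, 13 lay above and 8 below the all-gene median, and the list's own median exceeded it by 0.07. Postn, the matrix protein periostin of activated fibroblasts, was at 10.1 and 8.58 FPKM in mdx hearts and 6.77 and 4.11 in wild-type hearts (log2 change 0.71, SE 0.47). Ctgf, a growth factor gene of fibrosis, was at 8.81 and 11.6 FPKM against 7.32 and 5.08. Fibroblast markers had 0 of 9 members at an unadjusted p under 0.05, with Pdgfra, their receptor tyrosine kinase, at 1.97 and 1.9 against 1.09 and 1.10 and Lum, the matrix proteoglycan lumican, at 4.37 and 5.83 against 2.64 and 3.42.

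Macrophage markers were mixed, while genes of complement, MHC class II and inflammation lay mostly above the median of all genes in this contrast. Of 10 tested macrophage markers 5 lay above and 5 below the median of all genes, and 2 were higher at an unadjusted p under 0.05. At that threshold 1.63% of all tested genes were higher, which is the background for each list of this paragraph. Fcer1g, a signalling chain of Fc receptors, was at 2.02 and 3.45 FPKM in mdx and 0.513 and 0.570 in wild type, and Lyz2, lysozyme, at 10.2 and 12.9 against 4.39 and 5.70. Fcer1g passed the filter on low values through the mdx hearts alone, so its low p follows in part from the filter. Cd68, a lysosomal marker of macrophages, lay the other way, at 0 and 0.226 FPKM against 2.21 and 0.340. Of 11 tested genes of complement and MHC class II, 2 were higher at an unadjusted p under 0.05, namely H2-Ab1, an antigen-presenting chain, at 3.40 and 6.22 FPKM against 1.70 and 1.09, and Cd74, its chaperone, at 12.2 and 9.21 against 6.13 and 4.45. C1qc, a chain of the complement protein C1q, did not pass and was at 2.78 and 3.34 FPKM against 0.982 and 1.74. With the transgene its order was the opposite, at 0 in both trans/mdx hearts without UAA and 2.59 and 1.93 FPKM in transgenic hearts. Of the 11 complement and MHC class II genes, 8 lay above and 3 below the median of all genes (list median 0.22 relative to all genes). Of 13 tested inflammation genes 10 lay above and 3 below it (list median 0.31), and 2 were higher at an unadjusted p under 0.05. These were S100a8, a neutrophil calcium-binding protein gene, at 1.16 and 1.18 FPKM against 0 and 0, and Tnfrsf1a, the main receptor of tumour necrosis factor, at 3.43 and 1.78 against 0.859 and 0.855. Transgenic replicate 2 had S100a8 at 2.63 FPKM, above both mdx hearts. For Tnfrsf1a wild type was the exception, since the other groups lay at 1.19 to 2.97 FPKM. In trans/mdx without UAA minus transgenic heart, the relative list medians were -0.45 for inflammation and -0.28 for complement and MHC class II. In mdx against wild-type muscle they were 0.39 and 0.60. Of 11 T and B lymphocyte markers with values none passed the filter on low values. Anxa1, an annexin of membrane repair, was at 5.93 and 2.49 FPKM against 0.674 and 1.74.

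Erythrocyte genes gave no call but lay on the higher side in mdx, with a list median of 1.09 relative to all genes. Of 6 tested members 4 were higher at an unadjusted p under 0.05, beside 1.63% of all tested genes. The 4 are globin genes: an alpha pair (Hba-a1, Hba-a2) and a beta pair (Hbb-bs, Hbb-bt), each so alike in sequence that reads may be split between its copies. Hba-a2 was at 14.7 and 18.4 FPKM in mdx and 6.49 and 6.78 in wild type, and Hbb-bt at 8.60 and 18.1 against 4.84 and 3.77. The summed level of the list was 178 and 289 FPKM in mdx and 110.2 and 104 in wild type. Wild type was again the lower end for Hba-a1, at 30.7 and 21.9 FPKM, beside 31.6 to 80.8 in the 8 other hearts. The part of residual blood in these values was not tested.

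Circadian clock genes follow the hour of the day at which tissue is taken, which the labels do not give. Of 13 tested members 0 had an unadjusted p under 0.05, while 10 lay below the median of all genes and the list median was -0.41 relative to it. Both mdx libraries lay below both wild-type libraries for 6 members and above for 3, beside 8.90% and 16.6% of all tested genes. Dbp, an output gene of the clock, was at 6.76 and 17.2 FPKM in mdx and 17.5 and 21.9 in wild type, whereas its relative Tef was at 22 and 15.2 against 8.14 and 11. Of 26 tested genes of oxidative stress and Nrf2 targets 0 passed that threshold, and 21 lay above the median of all genes, by a list median of 0.16.

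**Figure D4:**
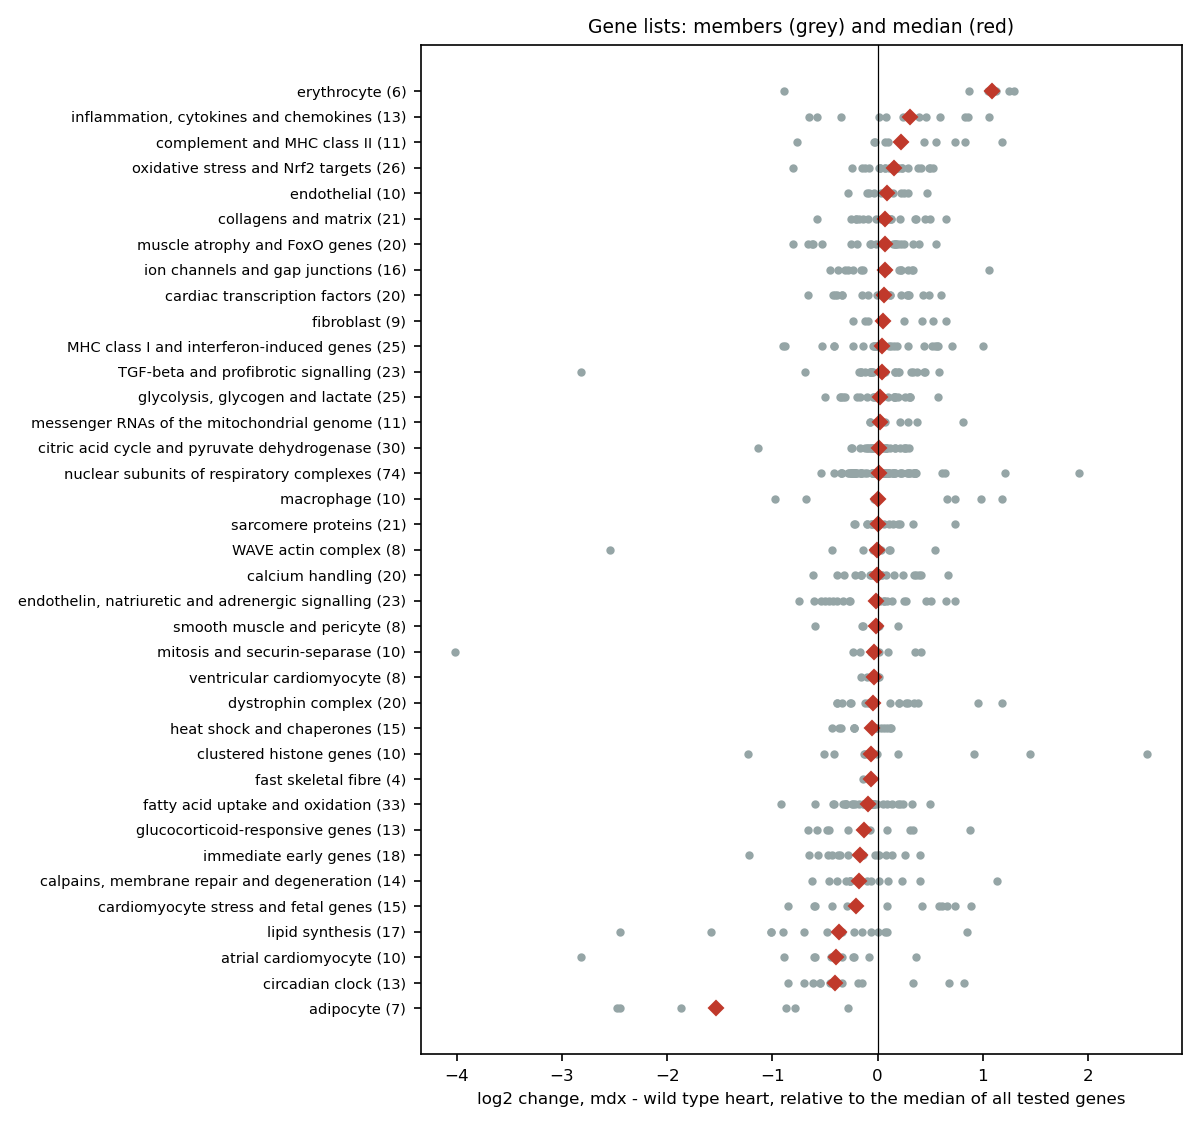
Log2 change between mdx and wild-type heart relative to the median of all tested genes (horizontal axis) for each list with 4 or more tested members. Grey points are members, red diamonds are list medians, and the number tested is in parentheses. The adipocyte list has the lowest median, -1.54, and the erythrocyte list the highest, 1.09.

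The genes with low p were then read in the other contrast of mdx carriers with non-carriers in heart, trans/mdx without UAA minus transgenic, which shares no library with this one. Of the 84 lower genes, 45 (53.6%) were lower there too, where 61.6% of all tested genes were lower, and 7 had an unadjusted p under 0.05. Of the 135 higher genes, 42 (31.1%) were higher there, where 38.1% of all tested genes were higher, and 5 had an unadjusted p under 0.05. The share of all tested genes at that threshold in the same contrast was not counted, so the 7 and the 5 have no background. In mdx against wild-type TA muscle, 54 of the 84 (64.3%) were lower beside 76.3% of all genes, and 40 of the 135 (29.6%) were higher beside 22.4%.

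**Figure D5:**
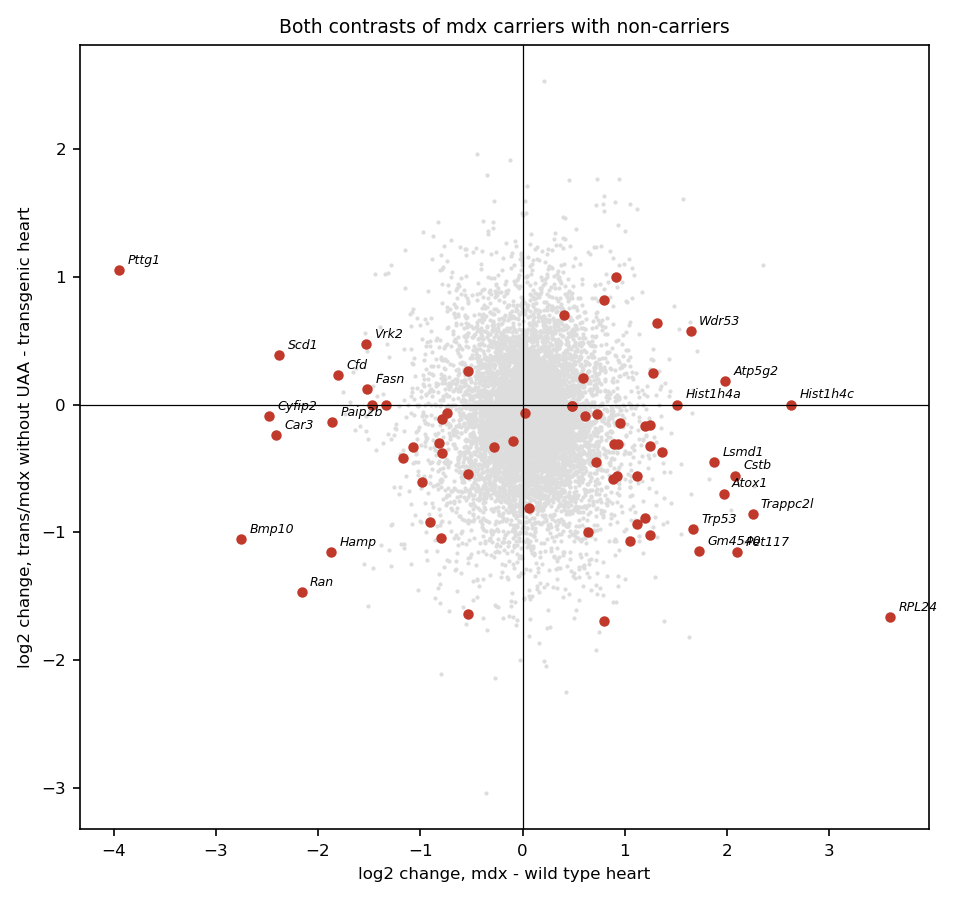
Log2 change between trans/mdx without UAA and transgenic heart (vertical axis) against that between mdx and wild-type heart (horizontal axis). Grey points are all 8269 tested genes and red points are genes examined singly, chosen in part by the horizontal axis, with names beyond 1.5 in either direction. Pttg1 is at -3.95 on the horizontal and 1.05 on the vertical axis, and the first value depends on the pseudocount since mdx is at 0.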

How the data were processed

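RNA of 10 hearts and 10 TA muscles was sequenced after ribosomal RNA depletion with a strand-directional kit, per the labels' protocols. Trimming with cutadapt 1.9.3, alignment with HISAT2 2.0.4 to mm10, and quantification with Cufflinks and Cuffdiff are named in the submitters' processing notes. The authors deposited FPKM values of 22564 genes, not counts, so no count model was used. Levels were taken as log2(FPKM + 1). limma 3.58.1 (R 4.3.3, trend) was fitted to the 10 hearts with a coefficient per group, keeping genes at 1 FPKM or more in at least 2 hearts, with Benjamini-Hochberg adjustment and a threshold of 0.05. Fold changes on this scale understate the change of low genes. Interactions with tissue and transgene used the same tool. The fit was tested on simulated data. The gene lists and named genes (Dmd, Utrn, the 12 with the lowest p in each direction, up to 4 tested members of a described list and up to 6 tested chromosome 11 neighbours with the lowest p, and markers at 0) were chosen with earlier results of these data known, and further list members were named after their values were seen. Some genes that the rule names are not reported here. Gene positions are from an mm10 annotation that holds 21839 of the IDs. Alternatives changed the pseudocount, the filter, the scaling, the libraries fitted and single replicates. p-values rest on the spread between mice pooled over all groups in the fit, with 2 mice per group, and drawn toward that of other genes. The fit of hearts had 5 residual and 15.5 moderated degrees of freedom. The spread within mdx and wild type alone is thus not what they measure.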

Additional observations from a re-analysis of the deposited data

Results flagged for a closer look

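Pttg1 differed between groups under the same contrast of mdx carriers with non-carriers. The mdx effect in heart without the transgene minus that with it was -4.998 on the log2(FPKM + 1) scale (SE 0.58, limma, adjusted p = 0.00241). Both mdx hearts were at 0, below both wild-type hearts, while both trans/mdx hearts without UAA were above both transgenic hearts. The size depends on the pseudocount because mdx is listed at 0, and it is no bound. The first contrast differs in strain label between its sides and the second does not, so strain and transgene cannot be told apart here.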

How the results depend on the processing

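Pttg1 was called in heart under all 19 alternatives tried for it (adjusted p 1.94e-05 to 0.0327). The count of genes called lower was 1, and 2 with a pseudocount of 0.1, no filter, quantile normalization, median-of-ratios scaling or the replicate block, 3 with all 20 libraries and 5 with the 4 libraries alone. The count called higher was 0, and 2 with no filter and 3 with the 4 libraries alone, and it ranged from 0 to 1 when single replicates were left out (1 without mdx replicate 2 or either treated trans/mdx heart). For the difference between tissues, genes called lower numbered 0, 2 with no filter and 0 to 1 with single replicates left out (1 without muscle wild-type replicate 2 or muscle mdx replicate 1), and genes called higher 0, 6 with no filter and 1 with quantile normalization. For the difference by transgene, genes called lower numbered 1 and 0 with no filter (Pttg1 adjusted p = 0.0503), and genes called higher 0 to 1 with single replicates left out (1 without heart mdx replicate 2). Cyfip2 had adjusted p of 0.0116 to 0.685 and passed in 5 of 18 alternatives, Bmp10 0.00344 to 0.722 in 3 of 18, and Hist1h4c, on the higher side, 0.00671 to 1 in 3 of 18. With the 4 libraries alone Scd1 and Car3 (both 0.0203), Trappc2l (0.0343) and RPL24 (5.87e-05) also passed, and Aif1l did with no filter (0.0353). Direction turned over under scaling for Utrn (-0.041 with quantile normalization, -0.054 with median-of-ratios) and Myl3 (-0.086 and -0.030). With single replicates left out, log2 changes ranged from -0.72 (without mdx replicate 2) to 0.17 (without mdx replicate 1) for Dmd. Between the same replicates they ranged from -0.27 to 0.32 for Utrn, -1.16 to 0.091 for Nppa, -1.57 to 0.51 for Myl4, -0.42 to 0.53 for Myl3 and -0.57 to 0.38 for Pln. Acta2, a smooth muscle actin gene, ranged from -1.11 to 0.049 and Sgce from -0.23 to 1.04 with wild-type replicates left out. The tissue difference of Pttg1 was -0.67 with quantile normalization and ranged from -0.28 (without heart wild-type replicate 1) to 0.34 (without heart wild-type replicate 2), with -0.02 without muscle wild-type replicate 1. The median change of all genes was 0.31 without mdx replicate 1 and -0.18 without mdx replicate 2. Some list medians relative to all genes changed sign over the alternatives, such as fatty acid uptake and oxidation (-0.294 to 0.133) and macrophage (-0.154 to 0.974). Others kept their sign, such as inflammation (0.0709 to 0.648), adipocyte (-3.16 to -0.29) and erythrocyte (1.03 to 1.24). Deviations of same-numbered mdx and wild-type hearts had a correlation of -0.01, which gives no sign of pairing, and the block added Bmp10 (adjusted p = 0.0447). The labels do not say which heart and muscle came from one mouse, and same-numbered hearts and muscles of the 5 groups had correlations of -0.020 to 0.0099. A replicate block of heart and muscle with one number, added after the data were seen, called 0 genes in either direction, as without it. The cause of these shifts was not tested. Low depth limits all levels near 1 FPKM.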

Other observations

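Genes were also sorted by whether the mdx mice stood apart from every other group, a pattern chosen after the data were seen and given without a test. Of 8269 genes, both mdx hearts lay below all 8 other hearts for 32 and above them for 212. The TA muscles showed the same placement for 3 of the 32 and 2 of the 212. The share of all tested genes with that placement in muscle was not counted, so these counts have no background. The 3 lower genes were Pttg1, 9930111J21Rik2 and Cadm4, a cell adhesion molecule gene. Of these, 9930111J21Rik2 lies in the window on chromosome 11, which was itself drawn around Pttg1 and Cyfip2. 9930111J21Rik2 was at 0 and 0.211 FPKM in mdx hearts and 0.873 to 2.04 in the others, and at 0 in both mdx muscles beside 0.169 to 0.586. Cadm4 was at 0.253 and 0.237 FPKM in mdx hearts beside 0.477 to 2.01, and at 0 in both mdx muscles beside 0.382 to 1.35. The 2 higher genes were Postn, at 10.1 and 8.58 FPKM beside 1.18 to 6.77 in heart and 3.61 and 3.45 beside 0.607 to 2.68 in muscle, and Adamts10, a matrix metalloprotease gene, at 1.13 and 1.70 beside 0 to 1.08 in heart and 1.61 and 1.61 beside 0 to 1.19 in muscle. In the opposite placement, 6 genes were above in heart and below in muscle, and 0 were below in heart and above in muscle. The mdx mice are the only group labelled C57BL/10, so line and genotype cannot be told apart in this pattern.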
